A study of Mus musculus with 6 samples.

Results

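The genes described are 10 mouse genes of cysteine, taurine and glutathione metabolism: Cdo1, Csad, Slc6a6, Got1, Cbs, Cth, Slc7a11, Gclc, Gclm and Gss, out of 55471 gene identifiers measured. The genes were chosen by the difference of 1 of them: Cdo1 was about 1051-fold higher in the mutant cells, and the other 9 surround it in the pathway. The difference of Cdo1 between the groups is therefore a description and not a test, and the same contrast in the other members is given in the same way, with no p. Where a member is said to pass or not, this only says where the fit over all genes placed it.

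RNA was sequenced from mesenchymal stromal cells of the endosteum, the inner bone surface, of C57BL/6J mice. There were 3 libraries labelled Bap1 WT, genotype Bap1fl/fl, and 3 labelled Bap1 cKO, genotype Prx1-cre;Bap1fl/fl, so both groups carried floxed Bap1 and the Cre set them apart. Prx1-cre is active in limb mesenchyme and its descendants, and Bap1 encodes a nuclear deubiquitinase that acts on histone H2A. The labels give no age, no treatment and no statement that each library came from a separate animal, so a p-value measures only the spread between these libraries.

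Cysteine stands at a branch point of sulfur metabolism. Cells take it up as cystine or make it from homocysteine through cystathionine (transsulfuration), and then use it for protein, for the antioxidant glutathione, or oxidise it to cysteine sulfinate, from which taurine is made. Liver, kidney and fat are known for strong cysteine oxidation. The transcription factors NRF2 and ATF4 are known to act on many genes of glutathione synthesis and of cystine and amino acid supply.

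Start-site windows from RefSeq (GRCm38.p6, 250 bases before to 50 after the annotated start, 7 windows for 6 of the members: Slc7a11, Got1, Gclm, Gss, Cbs and Csad, which has 2 windows) were searched on both strands for the cores of the elements these factors are known to bind. The cores were TGACNNNGC, of the antioxidant response element bound by NRF2, and TGATGNAA, of the amino acid response element bound by ATF4. The first was found in 4071 of 32851 windows of the same length (12.4%) and the second in 1304 (3.97%). Of the 4 windows printed, those of Slc7a11, Got1 and Gclm hold every match among the members, in capitals, and that of Gss is shown as one without a match. They lie at chr3:50443564-50443863 (minus strand, Slc7a11), chr19:43524556-43524855 (minus strand, Got1), chr3:122245307-122245606 (plus strand, Gclm) and chr2:155592761-155593060 (minus strand, Gss), and each is written 5′ to 3′ on the strand of its gene.
Slc7a11: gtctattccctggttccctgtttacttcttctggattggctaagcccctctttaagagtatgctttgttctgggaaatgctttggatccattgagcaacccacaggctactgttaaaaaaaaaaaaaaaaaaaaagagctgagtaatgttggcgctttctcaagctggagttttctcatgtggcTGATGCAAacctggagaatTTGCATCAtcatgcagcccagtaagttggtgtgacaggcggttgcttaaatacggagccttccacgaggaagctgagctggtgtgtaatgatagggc
Got1: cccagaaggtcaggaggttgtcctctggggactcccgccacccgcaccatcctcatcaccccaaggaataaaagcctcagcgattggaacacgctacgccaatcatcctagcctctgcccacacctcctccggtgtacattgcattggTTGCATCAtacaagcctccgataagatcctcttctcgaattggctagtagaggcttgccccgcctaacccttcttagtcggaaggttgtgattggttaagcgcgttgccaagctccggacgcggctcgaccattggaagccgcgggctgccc
Gclm: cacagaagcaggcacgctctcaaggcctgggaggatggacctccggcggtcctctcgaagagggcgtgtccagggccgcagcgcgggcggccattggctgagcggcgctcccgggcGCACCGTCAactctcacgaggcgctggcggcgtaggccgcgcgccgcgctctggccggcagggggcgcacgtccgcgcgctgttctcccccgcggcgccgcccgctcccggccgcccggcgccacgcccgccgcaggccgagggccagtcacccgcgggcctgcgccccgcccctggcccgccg
Gss: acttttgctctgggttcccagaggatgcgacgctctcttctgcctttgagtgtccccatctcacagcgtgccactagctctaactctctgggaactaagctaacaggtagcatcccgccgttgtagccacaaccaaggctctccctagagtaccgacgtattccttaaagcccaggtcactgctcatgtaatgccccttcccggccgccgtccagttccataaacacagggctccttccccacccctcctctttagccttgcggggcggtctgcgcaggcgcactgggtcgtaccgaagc
Slc7a11 held the amino acid response element core on both strands, beginning 66 and 47 bases before the start, and 0.07% of all windows (23) held it at least that often. Got1 held it once, 102 bases before the start on the opposite strand, and Gclm held the antioxidant response element core once, 134 bases before the start on the opposite strand. None of the matches overlapped another. A match is a run of letters and was not tested for binding, and a window without one says only that these letters are not in it.

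Estimated depth was 13050000 to 15050000 fragments in 5 of the libraries and 22150000 in cKO replicate 3. That library stood apart: it correlated with the WT libraries at r = 0.822 to 0.824 over genes, cKO replicates 1 and 2 at 0.757 to 0.765, while correlations within WT were 0.987 to 0.988 and within cKO 0.948 to 0.974. Bap1 itself was at 22.8, 22.72 and 24.01 RPKM (reads per kilobase of transcript, scaled to library size) in WT and 28.27, 25.16 and 22.99 in the libraries labelled cKO. Whole-gene values cannot show whether the floxed exons are gone, so this neither checks nor contradicts the labels. Marker levels also differed between the groups: the summed level of 14 bone marrow stromal markers was 2375.5 to 2524.3 RPKM in WT and 159 to 249 in cKO, carried in WT mostly by Col1a1, Col1a2 and Cxcl12. The markers did not move as one: Thy1 was at 10.65 to 14.81 RPKM in WT and 0, 0 and 0.22 in cKO, while Twist1 was at 16.11 to 17.74 and 14.86 to 15.87. Prrx1 was at 68.16 to 83.75 RPKM in WT and 39.46 to 72.24 in cKO, Pdgfra was higher in every cKO library (6.86 to 8.31 and 9.72 to 19.56), Nt5e overlapped between the groups, and Lepr was at 0.14 or less in all libraries. The sum over 7 adipocyte markers was 484 to 502 RPKM in WT and 2.77 to 6.34 in cKO. It was carried in WT mostly by Fabp4, at 391.68 to 409.11 RPKM, and Pparg, at 60.24 to 67.56. Adipoq, Cidec and Plin1 were at 1.09 RPKM or less in every WT library. The part of the stromal and adipocyte markers in the differences that follow was not tested.

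Cdo1 encodes cysteine dioxygenase, which oxidises cysteine to cysteine sulfinate, from which taurine is made. It was at 0.47, 0.16 and 0.16 RPKM in WT and at 304.13, 240.07 and 285.96 RPKM in cKO. The 3 cKO libraries lay close together and far above every WT library, and replicate 3 was between the other two. The means were 0.263 ± 0.179 RPKM (SD, n = 3) and 277 ± 33 RPKM (SD, n = 3), a 1051-fold ratio, with 511-fold between the nearest libraries and 1901-fold between the farthest.

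The size of that ratio rests on very few WT fragments. The WT values stand for an estimated 9.9, 3.1 and 3.5 fragments, 16 in all, and a floor of 3 fragments would be 0.138 to 0.157 RPKM for this gene. The 95% counting interval of the WT level puts the ratio between 659-fold and 1874-fold, which covers counting error only. Without WT replicate 1, the highest of the WT libraries, the ratio was 1730-fold, and without cKO replicate 3 it was 1033-fold. On the log2(RPKM + 1) scale, which understates the change of a gene so low in WT, the difference was 7.78 ± 0.14 (SE). In bulk RNA, more cells of a type and more RNA per cell cannot be told apart, here or for any other gene.

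Csad encodes cysteine sulfinate decarboxylase, the next enzyme on the way to taurine. It was at 16.8, 18.72 and 18.72 RPKM in WT and at 16.84, 14.13 and 13.37 RPKM in cKO. The groups overlapped, since cKO replicate 1 lay just above WT replicate 1. The means were 18.1 ± 1.11 and 14.8 ± 1.82 RPKM (SD, n = 3 each), and the difference of -0.28 ± 0.11 (SE) on the log2(RPKM + 1) scale did not pass. It did pass without cKO replicate 1, the overlapping library.

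Got1 encodes the cytosolic aspartate aminotransferase, which can also use cysteine sulfinate and so draws from the same intermediate as Csad. It was at 32.08, 28.45 and 29.91 RPKM in WT and at 11.15, 10.13 and 12.95 RPKM in cKO. All cKO libraries were lower than all WT libraries, 2.64-fold by the means of 30.1 ± 1.83 and 11.4 ± 1.43 RPKM (SD, n = 3 each). The log2(RPKM + 1) difference was -1.33 ± 0.11 (SE).

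Slc6a6 encodes the taurine transporter, which brings taurine into the cell with sodium and chloride. It was at 62.87, 57.33 and 60.51 RPKM in WT and at 121.97, 94.99 and 272.76 RPKM in cKO. Every cKO library was above every WT library, but replicate 3 was 2.51 times the mean of the other cKO libraries. The ratio of means was 2.71, or 1.8 when cKO replicate 3 was left out. The log2(RPKM + 1) difference was 1.27 ± 0.36 (SE) with it and 0.83 without it. The gene no longer passed the threshold when WT replicate 1, 2 or 3 was left out.

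The 4 genes that make or use cysteine sulfinate or carry taurine thus did not move as one. Cdo1 and Slc6a6 were higher in cKO, Got1 was lower, and Csad overlapped. In WT, Cdo1 was the lowest of the 4 per kilobase and Csad was 18.1 RPKM, while in cKO Cdo1 exceeded Csad in every library, with cKO means of 277 and 14.8 RPKM.

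**Figure D1:**
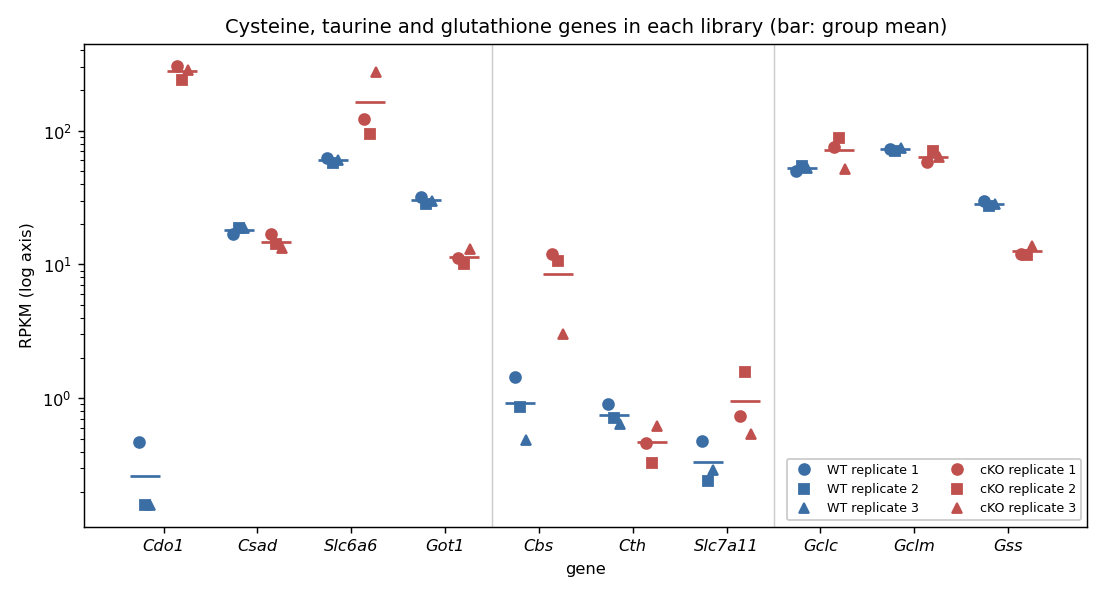
Level of each of the 10 genes in each library, in RPKM on a log axis, with bars at the group means. Genes are grouped as cysteine sulfinate and taurine, cysteine supply, and glutathione synthesis. The 3 cKO points of Cdo1 sit between 240.07 and 304.13 RPKM against at most 0.47 in WT, while Csad and Gclc overlap between the groups.

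Cbs encodes cystathionine beta-synthase, which joins homocysteine and serine in the first step of transsulfuration. It was at 1.44, 0.86 and 0.49 RPKM in WT and at 11.88, 10.55 and 3.02 RPKM in cKO. The groups did not overlap, and cKO replicate 3 lay between WT and the other cKO libraries. The means were 0.93 ± 0.479 and 8.48 ± 4.78 RPKM (SD, n = 3 each), a ratio of 9.12, or 12.1 without cKO replicate 3. The log2(RPKM + 1) difference was 2.16 ± 0.46 (SE).

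Cth encodes cystathionine gamma-lyase, which releases cysteine in the second step. It was low throughout, at 0.9, 0.71 and 0.64 RPKM in WT and 0.46, 0.33 and 0.62 RPKM in cKO. Its mean over the 6 libraries was under 1 RPKM, the minimum for the test, so it was not tested. The groups did not overlap, but WT replicate 3 and cKO replicate 3 were 0.64 and 0.62 RPKM. Under the lower minimum of 0.1 RPKM, where it was tested, it did not pass. Cbs was above Cth in every cKO library.

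Slc7a11 encodes the light chain of the cystine/glutamate antiporter, the main entry of cystine into many cultured cells. It was also under the minimum for the test, at 0.48, 0.24 and 0.29 RPKM in WT and 0.74, 1.58 and 0.54 RPKM in cKO. The cKO libraries were all higher, and the lowest of them was close to the highest WT library. The means were 0.337 ± 0.127 and 0.953 ± 0.552 RPKM (SD, n = 3 each), and under the lower minimum of 0.1 RPKM the gene was tested and did not pass. The antiporter's heavy chain, Slc3a2, is described with the transporters.

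Gclc encodes the catalytic subunit of glutamate-cysteine ligase, the rate-limiting enzyme of glutathione synthesis. It was at 49.63, 54.35 and 52.82 RPKM in WT and at 75.27, 87.79 and 52.02 RPKM in cKO. Replicates 1 and 2 of cKO were above all WT libraries, and replicate 3 lay within the WT range. The ratio of means was 1.37. When cKO replicate 3 was left out it was 1.56 and Gclc passed the threshold, which it did not when any other library was left out. Gclc is on chromosome 9, where the median difference of all tested genes was 0.34 on the log2(RPKM + 1) scale, against 0.42 ± 0.18 (SE) for the gene.

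Gclm encodes the modifier subunit of the same ligase, which raises its efficiency. It was at 72.68, 70.38 and 74.69 RPKM in WT and at 57.92, 70.11 and 63.46 RPKM in cKO. The groups did not overlap, although cKO replicate 2, at 70.11, nearly met WT replicate 2, at 70.38. The difference of -0.19 ± 0.09 (SE) on the log2(RPKM + 1) scale did not pass with all libraries and passed without cKO replicate 2. The ratio of Gclc to Gclm was 0.683, 0.772 and 0.707 in WT and 1.3, 1.25 and 0.82 in cKO, higher in every cKO library and least so in replicate 3.

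Gss encodes glutathione synthetase, which adds glycine in the last step. It was at 29.6, 27.13 and 28.12 RPKM in WT and at 12.04, 11.77 and 13.79 RPKM in cKO. All cKO libraries were lower, 2.26-fold by the means of 28.3 ± 1.24 and 12.5 ± 1.1 RPKM (SD, n = 3 each). The log2(RPKM + 1) difference was -1.12 ± 0.09 (SE).

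Over the 10 genes, 8 reached the minimum for the test. Of these, Cdo1, Slc6a6 and Cbs passed as higher, where 34.7% of the 12223 genes tested did. The call of Cdo1 was fixed by the choice of the panel. Cbs, with a WT mean of 0.93 RPKM, reached the minimum of 1 RPKM only through its cKO libraries, so its call is no independent support. Gss and Got1 passed as lower, where 26.5% of genes tested did. The groups did not overlap for 8 of the 10. Of these, 4 were higher in every cKO library, with Slc7a11 counted though not tested, against 39.2% of genes tested. The other 4 were lower, with Cth counted though not tested, against 29.8% of genes tested. Because the panel was chosen on this contrast and so many genes differ, nothing is read from these counts.

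The third cKO library was also compared with the other cKO libraries in the panel. It lay outside the range of cKO replicates 1 and 2 for 8 of the 10 genes and was nearer the WT mean than both of them for 6. The cKO SD was above the WT SD for 8 of the 10. These counts were not made over all genes, so nothing particular to the panel is read from them. Without cKO replicate 3, 4 members passed as higher, with Gclc added, and 2 as lower. Of the 12185 genes tested in that setting, 4483 passed as higher and 3623 as lower.

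**Figure D2:**
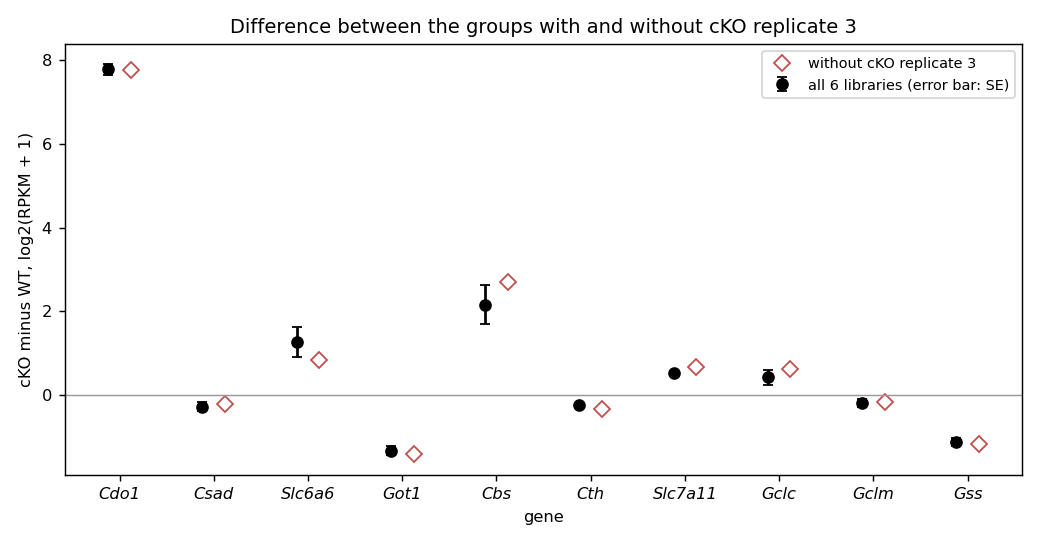
Difference between cKO and WT on the log2(RPKM + 1) scale for each of the 10 genes, with all 6 libraries (black points, SE bars where the gene was tested) and without cKO replicate 3 (open diamonds). Cdo1 stands at 7.78 and 7.76, and Slc6a6 moves from 1.27 to 0.83 when the library is left out.

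Ordered by mean RPKM, which is per kilobase and so comparable between genes, WT ran Gclm, Slc6a6, Gclc, Got1, Gss, Csad, Cbs, Cth, Slc7a11 and Cdo1, from 72.6 down to 0.263 RPKM. Got1 overlapped Gss, Cbs overlapped Cth, and Slc7a11 overlapped Cdo1, while the other neighbours were separate. In cKO the order ran Cdo1, Slc6a6, Gclc, Gclm, Csad, Gss, Got1, Cbs, Slc7a11 and Cth, from 277 down to 0.47 RPKM. Cdo1 moved from the bottom to the top, though its cKO libraries overlapped those of Slc6a6. Gclc overlapped Gclm, and the run from Csad through Gss and Got1 to Cbs overlapped at each step, as did Slc7a11 and Cth.

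The rest of the pathways was read from 7 lists of 136 genes that hold no member. Of the 109 tested, 25 rose (22.9%), 54 fell (49.5%) and 30 did not pass, where 34.7% of all genes tested were higher and 26.5% lower. The median log2(RPKM + 1) difference was -0.51 against 0.09 over all genes tested. The same shares over all genes stand behind the count of each list, and nothing is called particular to a list from them. Without cKO replicate 3 the counts were 28 and 60. For every gene of these lists that is named here the groups did not overlap, so its direction held in all 3 cKO libraries against all 3 WT libraries.

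Among 10 tested genes of taurine synthesis and sulfur oxidation, 3 rose and 4 fell, or 5 and 4 without cKO replicate 3. Sqor, the mitochondrial sulfide:quinone oxidoreductase, fell from 29.5 ± 1.81 to 3.51 ± 0.125 RPKM (limma adjusted p = 3.44e-06). Suox, which oxidises sulfite to sulfate, fell from 17.3 ± 1.12 to 2.83 ± 0.353 RPKM (adjusted p = 1.77e-05), and Ethe1, which oxidises persulfide, fell from 8.31 to 4.53 RPKM (adjusted p = 0.00179). Vnn1, a pantetheinase that yields cysteamine, rose from 1.93 ± 0.416 to 59.8 ± 64.9 RPKM (adjusted p = 0.00309). Its cKO libraries were at 18.23, 134.57 and 26.65 RPKM, so all were above WT but replicate 2 carried most of the mean.

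Of 11 tested genes of the methionine cycle, which supplies homocysteine to Cbs, 3 rose and 5 fell. Gamt, which uses the methyl donor to make creatine, fell 2.94-fold (adjusted p = 3.57e-05), and Ahcy, which releases homocysteine, fell 1.42-fold (adjusted p = 0.00122). Nnmt, which methylates nicotinamide, was at 21.59, 19.21 and 20.51 RPKM in WT and 0, 0.19 and 0.57 RPKM in cKO. The 3 higher calls were Mat2a, Mat2b and Mtrr, named after their values were seen, and were at most 1.41-fold. They went to 0 without WT replicate 1, 2 or 3 or without cKO replicate 1, and to 1 without cKO replicate 3. Scaling by median of ratios or by quantiles also left 0.

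Among 11 tested transporters of cystine, cysteine and glutamate, 5 rose and 3 fell, or 5 and 1 without WT replicate 2. Slc3a2, the heavy chain that carries Slc7a11 to the membrane, was at 127.92, 108.12 and 124.51 RPKM in WT and at 178.15, 169.54 and 199.88 RPKM in cKO (adjusted p = 0.00191). It was thus far above its light chain per kilobase in both groups, and it also pairs with other light chains. Ctns, the lysosomal cystine exporter, rose 6.75-fold (adjusted p = 6.88e-05), and Slc1a5, a neutral amino acid exchanger, rose 5.15-fold (adjusted p = 0.000285). Slc25a39, which brings glutathione into mitochondria, rose 2.2-fold (adjusted p = 0.00133). For Ctns, Slc1a5 and Slc25a39 cKO replicate 3 was the lowest cKO library, yet above every WT library.

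Of 10 tested genes of glutathione breakdown and recycling, 1 rose and 6 fell, or 2 and 6 without cKO replicate 3. Gsr, which reduces oxidised glutathione, was at 44.91, 44.18 and 46.06 RPKM in WT and 7.76, 12.08 and 9.75 RPKM in cKO, 4.57-fold lower (adjusted p = 6.58e-05). Ggt5, a cell-surface enzyme that cleaves glutathione conjugates, fell (adjusted p = 5.62e-06) and lay between 18.1 and 21.06 RPKM in WT and between 0.1 and 0.48 in cKO. Its relative Ggt7 also fell (adjusted p = 7.23e-06), with 16.24 to 19.65 RPKM in WT and 0.17 to 0.58 in cKO. Dpep1, a dipeptidase that splits the cysteinylglycine left by that cleavage, was at 1.64 to 2.36 RPKM in WT and listed at 0 in all cKO libraries (adjusted p = 0.000254). It fell under the minimum for the test when WT replicate 1, 2 or 3 was left out.

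Glutathione-using enzymes were the longest list, with 6 of 28 tested genes higher and 14 lower. Mgst1, a membrane-bound glutathione transferase, fell from 231 ± 5.44 to 15.7 ± 0.962 RPKM, 14.7-fold (adjusted p = 5.21e-07). Mgst3 fell 26.1-fold (adjusted p = 7.03e-07), and Mgst2 was at 32.12 to 35.73 RPKM in WT and at 0.39 to 0.74 in cKO (adjusted p = 1.74e-06). Gpx7, a peroxidase of the endoplasmic reticulum, was at 33.35 to 36.13 RPKM in WT and at 0.41 to 1.04 in cKO (adjusted p = 3.95e-06). Members of the transferase families share close sequence, so reads may be divided between them uncertainly.

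All 20 genes of the NRF2 list were tested, with 5 higher and 14 lower. Nfe2l2, the gene of NRF2 itself, fell from 53.8 ± 4.4 to 25.3 ± 1.58 RPKM, 2.13-fold (adjusted p = 0.000137). Srxn1, which repairs oxidised peroxiredoxins, fell 3.35-fold (adjusted p = 5.64e-06), and Cat, catalase, fell 1.98-fold (adjusted p = 0.000136). Fth1, the ferritin heavy chain, was at 2768.14 to 2843.1 RPKM in WT and 944.2 to 1413.85 RPKM in cKO, with close processed copies that make its reads uncertain.

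Of 19 genes of the ATF4 list, all tested, 2 rose, 8 fell and 9 did not pass, or 2 and 12 without cKO replicate 3. Sesn2, a stress-induced inhibitor of growth signalling, fell 5.11-fold (adjusted p = 9.46e-05). Aldh18a1 and Pycr1, which make proline, fell 2.3-fold (adjusted p = 0.000321) and 4.05-fold (adjusted p = 0.00064). Vldlr, a lipoprotein receptor, was at 0.02 to 0.08 RPKM in WT and 20.84 to 27.86 RPKM in cKO.

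**Figure D3:**
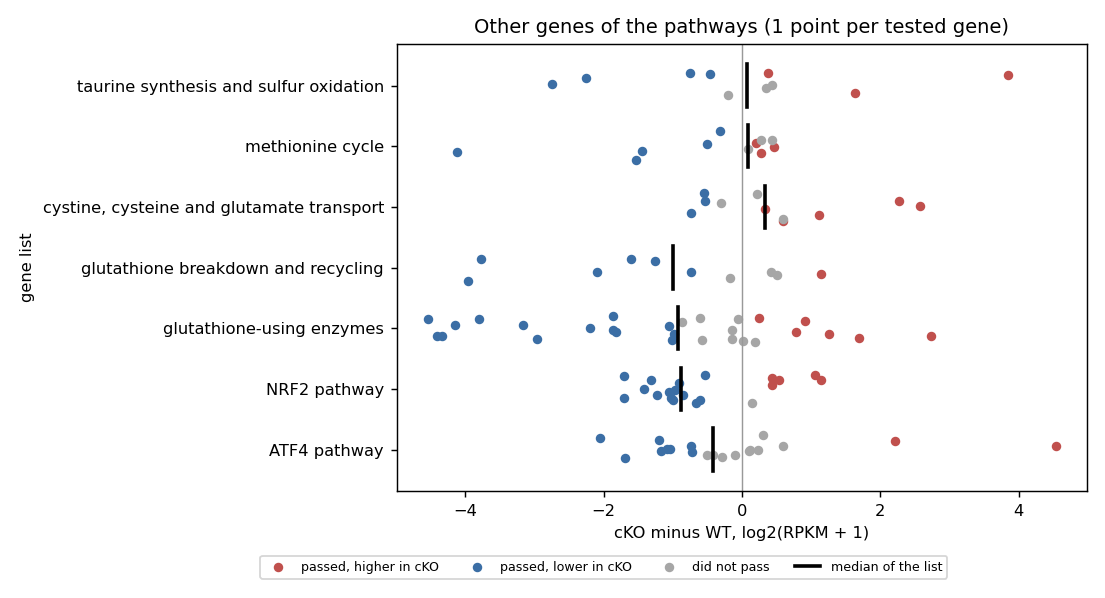
Difference between cKO and WT on the log2(RPKM + 1) scale for each of the 109 tested genes of the 7 lists, coloured by whether the gene passed the threshold, with a bar at each list's median. The medians run from -1 for glutathione breakdown and recycling to 0.33 for transport.

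The genes whose levels over the 6 libraries were nearest to those of Cdo1, by Euclidean distance of log2(RPKM + 1) and leaving out predicted genes and pseudogenes, were Igfbp6 (1.04), Pax8 (1.45), Bcam (1.46), C3 (1.9) and Sema3f (1.92). Igfbp6 binds insulin-like growth factors, and was at 0.4 to 1.38 RPKM in WT and 224.08 to 344.7 RPKM in cKO. Pax8, a transcription factor of kidney and thyroid, was at 0.12 to 0.21 RPKM in WT and 124.15 to 243.21 RPKM in cKO. All 5 were at 2.25 RPKM or less in every WT library and at 84.49 or more in every cKO library. Because these genes were picked for their likeness to Cdo1 over the same libraries, their difference between the groups is a description.

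Cdo1 is expressed strongly in kidney, liver and fat, so markers of those tissues were read beside it. The summed level of 17 markers of kidney tubule and collecting duct was 20.5 to 28.2 RPKM in WT and 1847 to 7024.3 RPKM in cKO, lowest in cKO replicate 3. It was carried by S100g, Klk1 and Pax8: only 5 of the 17 had a cKO mean of at least 1 RPKM, and Calb1 and Trpv5 were at 0 in all libraries. The 10 proximal tubule markers summed to 1.66 to 2.38 RPKM in WT and 0.06 to 0.24 in cKO, with 6 at 0 throughout, and the 10 hepatocyte markers to at most 0.11 RPKM in any library. Haematopoietic and endothelial markers summed to at most 0.65 RPKM. Cdo1 in cKO replicate 3 was 1.05 times the mean of the other cKO libraries. Whether other cells had a part in the Cdo1 level was not tested.

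Cdo1 lies on chromosome 18 from 46713193 to 46728395 (minus strand, GRCm38), where the median difference of tested genes was -0.23. Its neighbours, named after their values were seen, differed far less than it did. Atg12, an autophagy gene 1749 bp away, was at 10.8 ± 0.614 RPKM in WT and 13.7 ± 0.775 in cKO (adjusted p = 0.023). Ap3s1, an adaptor subunit gene 13481 bp away, fell from 65.5 ± 9.26 to 33.8 ± 3.78 RPKM (adjusted p = 0.00108). On the other side Eif1a, a translation initiation factor gene 96737 bp away, was higher in cKO, at 88.7 ± 6.45 and 114 ± 18.5 RPKM (adjusted p = 0.0441), and Tmed7, 115658 bp away at 66.1 ± 0.685 and 73.2 ± 4.59 RPKM, did not pass (adjusted p = 0.12).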

How the data were processed

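Values were deposited by the authors as RPKM with 2 decimals for 6 libraries of polyA RNA, read as 151 bp pairs per the labels' protocols. Per the submitters' processing notes the tools were RSEM 1.3.1, STAR 2.7.1a and cutadapt 2.8 and the build was GRCm38. The annotation version is not given in the sources used here, and symbols and coordinates are those of GENCODE M21. Read counts were not used, and depth was estimated from steps between low values.

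The main test was limma 3.58.1 in R 4.3.3 (2-sided, trend, genotype only) on log2(RPKM + 1) for the 12223 genes averaging 1 RPKM or more. The threshold was a Benjamini-Hochberg adjusted p under 0.05. The code was checked on simulated data with few changed genes and the same spread in both groups, unlike these data. The 10 genes and the 7 pathway lists were chosen with earlier results of these data known. Of each list the 4 genes with the smallest p are named, except 1 that is not reported here, of each marker list those that give its range, and the 5 genes nearest to Cdo1. Alternatives were other pseudocounts, minimum levels, scalings, sample weights, a robust prior, a replicate block, chromosome centring (added after seeing the data) and leaving out each library. Promoter windows came from RefSeq. Tables and figures were made in Python 3.11.15.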

Additional observations from a re-analysis of the deposited data

How the results depend on the processing

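Over the 19 alternatives, counts of passing genes over the whole table and over the 7 lists pooled stayed within 1.5 times the reported ones. Counts within single lists moved further in some settings. The pathway genes named for their smallest p kept direction and call wherever tested. Of these, Dpep1 was under the minimum, and so not tested, at 5 RPKM and without WT replicate 1, 2 or 3. The higher calls of Mat2a, Mat2b and Mtrr, named after their values were seen, were lost in several settings. Leaving out 1 library gave 3504 to 4483 genes higher and 2626 to 3623 lower, against 4237 and 3239 with all. Scaling by median of ratios turned the split to 3616 higher and 3771 lower, and centring each chromosome, an alternative chosen after seeing the data, to 3237 and 3577. Same-numbered libraries did not deviate together from their group means (correlations -0.017, 0.05 and -0.019), and the main test used no pairing. With 3 libraries per group this cannot exclude that same-numbered samples share more than a number. A replicate block gave 3811 higher and 2938 lower, 23 and 52 of the pathway genes against 25 and 54, and 0 methionine cycle genes higher against 3. Csad passed in 4 of the 20 settings, main included, Gclm in 4, Gclc in 3, Slc6a6 in 17 and Cbs in 19. Centring each chromosome gave 2 NRF2 genes higher against 5 and 1 methionine cycle gene against 3. Depth limits low levels: 3 estimated fragments correspond to 0.135 to 0.23 RPKM for 1 kb of transcript, depending on the library.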
